A study of Rattus norvegicus with 12 samples.

Results

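The small leucine-rich proteoglycans are secreted matrix proteins built around a run of leucine-rich repeats. They were followed here as 10 gene symbols, Dcn, Bgn, Aspn, Fmod, Lum, Prelp, Kera, Omd, Ogn and Epyc, and each gene row whose symbol equals one of them was taken. This gave 11 gene IDs of the 20400 listed in either of 2 deposited gene tables. The tables list 9 of the 10 symbols, Aspn and Ogn each under 2 gene IDs, and no row has the symbol Omd. All libraries came from mesenchymal stem cells of rat bone marrow (BMSCs), wild type in genotype and kept in a low-glucose medium with chondrogenic induction. Untreated BMSCs make up group BMSC-C. In group BMSC-CT, which the series design calls fibrotic BMSCs, cells had 1 week of CTGF (connective tissue growth factor) before TGF-β1 was given. BF-C and BF-D are labelled as fibrotic BMSCs, under a control treatment and under docetaxel, a drug that stabilizes microtubules. The series design calls them induced fibrotic chondrocytes. Each of the 4 groups held 3 libraries. The labels give no strain or age of the rats, no docetaxel dose or time and no account of the origin of the BF cells. Nothing marks the replicates as separate cultures, so each p-value below measures only the spread between these libraries, which may be technical.

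The family coats and spaces collagen fibrils. Decorin (Dcn), biglycan (Bgn) and asporin (Aspn) form one class, of which decorin and biglycan carry chondroitin or dermatan sulfate chains and can bind TGF-β. Fibromodulin (Fmod), lumican (Lum), PRELP (Prelp), keratocan (Kera) and osteomodulin (Omd) form another class, several of whose members carry keratan sulfate. Osteoglycin (Ogn) and epiphycan (Epyc) belong to the third class. In tendon and fibrocartilage decorin, biglycan, fibromodulin and lumican are known as regulators of fibril width, and loss of fibromodulin in mice weakens tendons.

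Several members lie side by side. In the deposited positions, whose genome build is not given in the sources used here, Dcn, Lum, Kera and Epyc follow each other on chromosome 7 and on the same strand, with gaps of 37.4, 31.2 and 31.8 kb. Prelp and Fmod lie 112 kb apart on chromosome 13, on opposite strands. An Ogn and an Aspn ID stand next to each other at each of 2 places on chromosome 17, and Bgn is on the X chromosome. The promoters of Fmod and Lum are shown because these are the members with a promoter in the RefSeq table (GRCr8) that moved in opposite directions in BMSC-CT. Each sequence is the 250 bases before the annotated gene start, 5′ to 3′ in the direction of the gene. The Fmod window is chr13:48045317-48045566 and the Lum window chr7:34245456-34245705, both on the + strand of GRCr8. Capitals mark matches on either strand to a GC box (GGGCGG, reverse CCGCCC) or to the short SMAD element (CAGAC, reverse GTCTG), and no 2 marked matches overlap.
Fmod: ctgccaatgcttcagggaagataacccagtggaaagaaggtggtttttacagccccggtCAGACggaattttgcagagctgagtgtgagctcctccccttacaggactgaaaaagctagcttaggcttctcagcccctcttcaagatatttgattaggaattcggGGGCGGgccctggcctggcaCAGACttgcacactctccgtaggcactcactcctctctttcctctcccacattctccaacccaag
Lum: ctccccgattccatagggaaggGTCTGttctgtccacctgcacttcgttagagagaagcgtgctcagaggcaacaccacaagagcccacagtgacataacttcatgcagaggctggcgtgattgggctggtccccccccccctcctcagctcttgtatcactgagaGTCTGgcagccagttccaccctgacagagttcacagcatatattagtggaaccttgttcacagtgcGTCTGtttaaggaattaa
The Fmod window held 1 GC box and 2 SMAD letter matches, at 191 and 65 bases before the start. The Lum window held 3 SMAD matches, at 228, 84 and 18 bases before the start. Of 33469 promoter windows of this length in the RefSeq table, 42.9% held at least 1 SMAD match and 30.5% a GC box. Neither window held a TATA box (TATAAA, in 12.9% of windows), an AP-1 site (TGANTCA, in 6.34%) or the palindromic SMAD element (GTCTAGAC, in 0.173%). A match of letters is a description of the sequence and not a bound site.

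Reads on the listed genes, as recovered from the deposited values, ran from 15580310 to 19870047 per library. BMSC-CT replicate 3 stood apart, with 14621 genes detected where each other BMSC library had at least 16100, and with 13.3% of reads on ribosomal protein genes where the others had at most 5.76%. For BF-D replicate 2 that share was 2.57%, and at most 1.65% in the rest of the BF libraries. In both, short genes read high: across genes, the deviation from the group mean had a Spearman rho with gene length of -0.40 and -0.36. Marker lists checked the labels. Their sums are given as RPM, reads per 1000000 reads of the library. Of 9 mesenchymal stromal markers, all had reads in BMSC-C, BF-C and BF-D, and their sum was 3422 to 3813 RPM in BMSC-C, 886 to 2047 in BMSC-CT, 5511 to 5536 in BF-C and 4741 to 5320 in BF-D. Of 11 macrophage markers, the sum was 7880 to 9419 RPM in BMSC-C, 8211 to 12126 in BMSC-CT, 40.0 to 43.1 in BF-C and 55.2 to 61.4 in BF-D, with C1qa, C1qb and C1qc not listed or at 0 in the BF groups. In the BMSC groups these genes were low too, with means of at most 6.97 RPM. Lyz2 and Adgre1 made most of the BMSC sums, at means of 4066 and 3145 RPM in BMSC-C and 8102 and 963 in BMSC-CT. Of 11 chondrocyte markers, Col2a1 was not listed or at 0 in both BMSC groups, and Acan in both BF groups. The sum of the chondrocyte list was 32.9 to 51.1 in BMSC-C, 37.5 to 153 in BMSC-CT, 481 to 508 in BF-C and 330 to 398 in BF-D. Col11a1 alone made most of each sum. Its mean was 490 RPM for the BF controls and 354 under docetaxel, against 100 for treated and 40.6 for untreated BMSCs. No other gene of the chondrocyte list had a group mean above 3.75 RPM, so these sums mainly describe Col11a1.

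Decorin, biglycan and, in the BF cells, lumican were among the most abundant transcripts. Levels are compared between genes as RPKM, which is RPM divided by the gene length in kilobases, with the deposited lengths. In BMSC-C decorin led at 4657 ± 831 RPKM (mean ± SD, n = 3 libraries here and below), ahead of biglycan at 1836 ± 276 and lumican at 256 ± 57.1, and none of these ranges touched. Decorin ranked between 5 and 12 among all 18616 genes of the table by RPKM. Prelp at 8.10 ± 0.780 and Fmod at 6.74 ± 0.557 RPKM stood next, with ranges that overlapped by a little. In BMSC-CT biglycan led at 1652 ± 422, decorin followed at 1019 ± 295, and their ranges of 1165 to 1903 and 737 to 1326 overlapped, although biglycan was the higher in each library. Lumican at 98.3 ± 26.2 and fibromodulin at 77.2 ± 16.5 RPKM also overlapped there, far above Prelp at 1.36 ± 0.128. Among all genes biglycan ranked between 45 and 149 in BMSC-CT and decorin between 76 and 209.

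In BF-C biglycan reached 2334 ± 32.6 RPKM, decorin 2178 ± 45.7 and lumican 1427 ± 30.6. These 3 ranges did not touch, and the 3 genes ranked between 16 and 28 among 19355 genes. Fibromodulin stood at 119 ± 1.32 and Prelp at 14.7 ± 0.614. In BF-D the order of decorin at 2430 ± 194 and biglycan at 2243 ± 228 could not be told apart from their spread, and lumican was at 1519 ± 194, fibromodulin at 91.2 ± 8.80 and Prelp at 12.1 ± 1.39. Kera, a keratan sulfate proteoglycan of the cornea, and both IDs of Aspn and Ogn had group means below 10 RPKM in all 4 groups, and Epyc had at most 4 reads in any library. A row described as osteomodulin-like in the BF table, which lacks the symbol Omd and is not a member, held 0 to 11 reads per library.

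**Figure D1:**
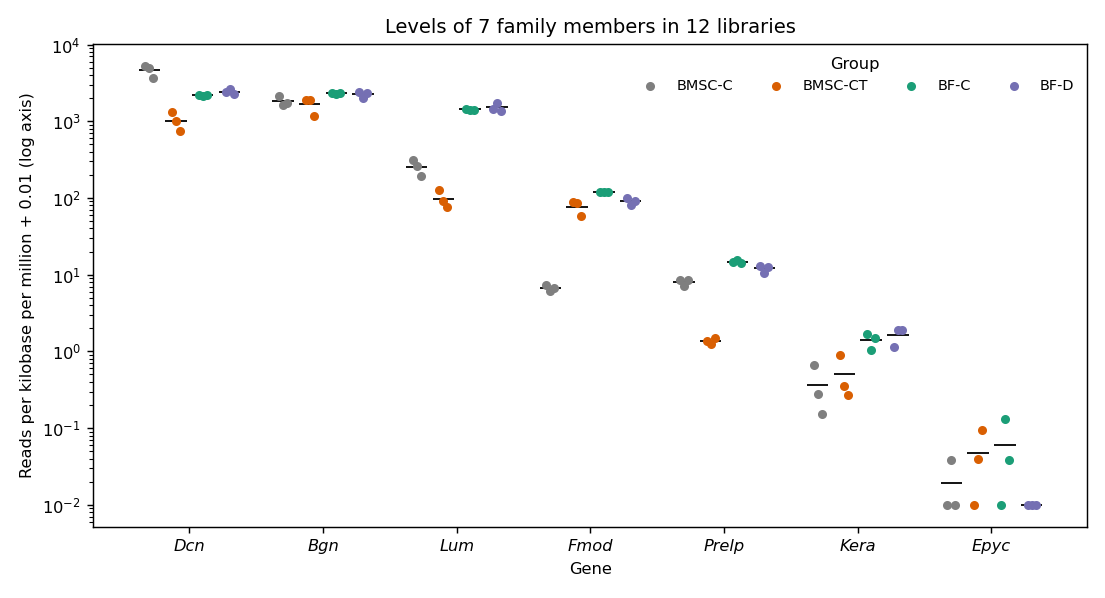
Level of 7 members in each of the 12 libraries, in RPKM with 0.01 added, on a log axis, where points are libraries in replicate order and black lines group means. Fmod is near 6.74 in BMSC-C and between 58.3 and 88.4 in BMSC-CT, while Prelp is lower in BMSC-CT than in BMSC-C and Epyc lies near the bottom of the axis in all groups.

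The 2 tables were normalized separately by the authors, so levels of the BMSC and BF groups are set side by side as RPM without a test. The 5 members with a mean of at least 10 RPM over the 12 libraries are called abundant below. Prelp is 1 of them, although it ranked no higher than 4508 among all genes by RPKM in any library. Of these 5, fibromodulin had the widest ratio between the controls, 17.6, at 23.9 ± 1.98 RPM in BMSC-C and 422 ± 4.69 in BF-C. Lumican came next with a ratio of 5.57, at 516 ± 115 and 2876 ± 61.7. In BMSC-CT fibromodulin was at 274 ± 58.4, so that BF-C was 1.54 times BMSC-CT. For lumican that ratio was 14.5 and for Prelp 10.8. Decorin in BF-C was 0.468 times its BMSC-C level and 2.14 times its BMSC-CT level, and biglycan 1.27 times and 1.41 times. In bulk RNA, fewer cells of a type and less RNA per cell cannot be told apart, and the part that different cell mixtures, such as the macrophage transcripts of the BMSC groups, have in these ratios was not tested.

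The addition of CTGF and then TGF-β1 to BMSCs was examined for its effect on each member by limma on log2(normalized count + 1), over 16818 genes with a mean of at least 1. Of the 11 member IDs, all of which passed that minimum, 1 rose and 3 fell at an adjusted p under 0.05. Fibromodulin rose and decorin, PRELP and lumican fell, while the other 7 IDs, biglycan among them, did not pass. Over all genes tested 18.6% were called, 7.70% higher and 10.9% lower. On the recovered reads edgeR and DESeq2 called the same 4 members, against 17.6% and 32.7% of all genes. The median log2 fold change was 0.24 over the 11 IDs and -0.15 over all genes.

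Fibromodulin (ENSRNOG00000003183), which binds collagen I and steers fibril growth, had 377, 316 and 364 normalized counts in BMSC-C and 5016, 5206 and 5755 in BMSC-CT. On these counts each treated library held more than 10 times the value of each control. The mean went from 353 ± 32.0 to 5326 ± 384, a ratio of 15.1. The log2 fold change was 3.91 (standard error 0.18, limma adjusted p = 0.000196). On this scale fold changes of low genes are understated. Fibromodulin kept its call without any single library and under each alternative run, between 3.49 and 3.97. The underlying reads were 374 to 464 per control library and 3574 to 5547 per treated library. The lowest treated number, 3574, was that of BMSC-CT replicate 3, whose normalized count was the highest. By RPM the controls held 21.9 to 25.9 and the treated libraries 207 to 313.

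Decorin (ENSRNOG00000004554), which binds TGF-β and trims collagen fibrils, had 142606, 134416 and 105205 normalized counts in BMSC-C and 39497, 31980 and 38183 in BMSC-CT. The lowest control was still well above the highest treated library. Its mean went from 127409 ± 19661 to 36553 ± 4015, and the log2 fold change was -1.80 (standard error 0.27, limma adjusted p = 0.00769). Without BMSC-C replicate 1 the limma adjusted p was 0.0590, and without BMSC-C replicate 2 it was 0.0642, so the call then ended.

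PRELP (Prelp, ENSRNOG00000003120), which links matrix collagen to heparan sulfate of basement membranes, had 452, 377 and 474 normalized counts in BMSC-C and 77.8, 78.1 and 151 in BMSC-CT. The highest treated value was that of BMSC-CT replicate 3, the library that stood apart and in which 1 read was worth 1.61 normalized counts. Its 94 reads lie close to the 86 and 74 reads of the other treated libraries. The log2 fold change was -2.14 (standard error 0.34, limma adjusted p = 0.00947). Without BMSC-CT replicate 3 it was -2.46 (limma adjusted p = 3.49e-05), and without BMSC-C replicate 1, 2 or 3 the limma adjusted p was 0.0624, 0.0541 and 0.0507.

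Lumican (Lum, ENSRNOG00000004610), which like fibromodulin binds fibrillar collagen, had 9084, 7638 and 6011 normalized counts in BMSC-C and 4105, 3182 and 4275 in BMSC-CT. The groups did not overlap, and the lowest control, 6011, and the highest treated value, 4275, lay closer together than the highest and lowest controls. The log2 fold change was -0.97 (standard error 0.24, limma adjusted p = 0.0368). This call ended without any 1 of the 5 libraries other than BMSC-CT replicate 3, with limma adjusted p of 0.0539 to 0.148. Without BMSC-CT replicate 3 it was -1.05 (limma adjusted p = 0.00433).

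Biglycan (Bgn, ENSRNOG00000055962), the nearest relative of decorin, had 75844, 56559 and 64459 normalized counts in BMSC-C and 73854, 79166 and 78646 in BMSC-CT. The groups overlapped. The log2 fold change was 0.24 (standard error 0.25, limma adjusted p = 0.486), and its sign turned to -0.18 under total-read scaling and -0.55 under quantile scaling. The scaling also moved the median over all genes, from -0.15 to -0.53 under total-read scaling and to 0.08 under quantile scaling. The calls over all genes were 41.3% higher as deposited, 28.6% under total-read scaling and 51.8% under quantile scaling. Under both scalings fibromodulin stayed higher, and decorin, PRELP and lumican stayed lower, in BMSC-CT.

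The remaining members had few reads in BMSCs. Kera had 18.7, 7.61 and 4.33 normalized counts in BMSC-C and 28.0, 11.6 and 14.5 in BMSC-CT (log2 fold change 0.88, standard error 0.64, limma adjusted p = 0.328). The longer Ogn model (ENSRNOG00000029792) had 4.06, 6.77 and 6.07 normalized counts against 9.04, 10.6 and 49.9. Its groups did not overlap, but the highest value was again BMSC-CT replicate 3, and the log2 fold change of 1.47 did not pass (standard error 0.71, limma adjusted p = 0.174). The other Ogn ID (ENSRNOG00000047786) had no reads in BMSC-C, which allows up to 0.0571 RPM over the group, and 2, 5 and 0 reads in BMSC-CT. It passed only when BMSC-CT replicate 3 was left out among the libraries dropped 1 at a time (limma adjusted p = 0.0396). Aspn had 10 reads or fewer over both IDs in each BMSC library, and Epyc 3 or fewer. In all, 5 of the 11 IDs had groups that did not overlap, against 52.2% of all genes tested.

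**Figure D2:**
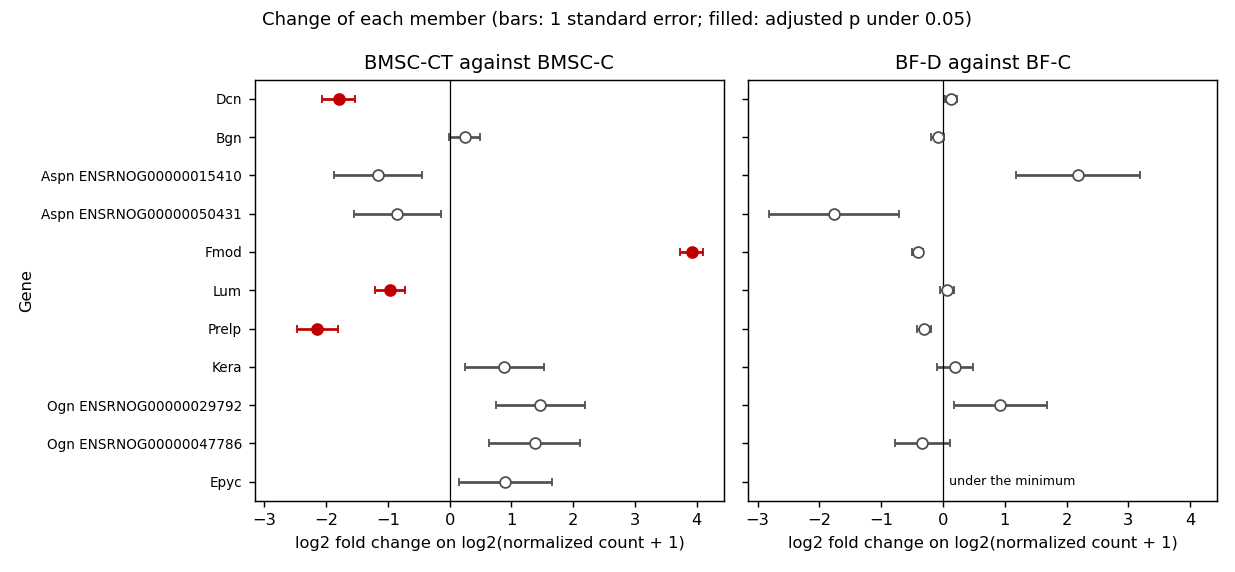
Log2 fold change of each member on log2(normalized count + 1), BMSC-CT against BMSC-C on the left and BF-D against BF-C on the right, with bars of 1 standard error and filled points for an adjusted p under 0.05. Fmod stands at 3.91 on the left and -0.41 on the right, the filled points are Fmod, Dcn, Prelp and Lum on the left, and no point is filled on the right.

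The shares that decorin, biglycan, fibromodulin, lumican and PRELP took of the family's reads did not overlap between the BMSC groups. The ranges of lumican came close, at 3.41% to 3.98% in BMSC-C and 2.66% to 3.36% in BMSC-CT. By normalized counts, groups without overlap were found for 52.2% of all genes tested. All member reads together made 15677, 13822 and 11587 RPM in BMSC-C and 7662, 6925 and 4565 in BMSC-CT. Decorin took 63.2 ± 3.97% of the family's reads in BMSC-C and 29.7 ± 2.76% in BMSC-CT. Biglycan took 32.7 ± 4.09% and 62.8 ± 3.06%, and fibromodulin 0.177 ± 0.0257% and 4.32 ± 0.220%. Ratios within a library do not depend on a scaling by 1 factor per library. Per kilobase, biglycan stood at 0.400 ± 0.0740 of decorin in BMSC-C and at 1.64 ± 0.238 in BMSC-CT, with no overlap between 0.323 to 0.470 and 1.44 to 1.90. Fibromodulin per lumican went from 0.0272 ± 0.00626 to 0.796 ± 0.121. Prelp per Fmod, the neighbours on chromosome 13, was 1.20 ± 0.0604 in BMSC-C and 0.0185 ± 0.00623 in BMSC-CT. Lumican per decorin, the neighbours on chromosome 7, was 0.0547 ± 0.00359 in BMSC-C and 0.0972 ± 0.00585 in BMSC-CT. In the same comparison 3 of 11 macrophage markers rose and 1 fell, and 1 of 9 stromal markers rose and 3 fell. Rises and falls were 2 and 0 of 6 tested chondrocyte markers, 1 and 1 of 4 tendon, 2 and 1 of 4 osteoblast, 1 and 1 of 5 adipocyte and 1 and 1 of 4 endothelial markers. These counts stand against 7.70% of all genes called higher and 10.9% called lower. Without BMSC-CT replicate 3, rises and falls were 3 and 7 for macrophage, 1 and 4 for stromal and 2 and 2 for tendon markers. The counts of the other marker lists did not change. That fit called 3269 of all 16742 genes higher and 3935 lower. The part of the cell mixture in the changes of the members was not tested.

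**Figure D3:**
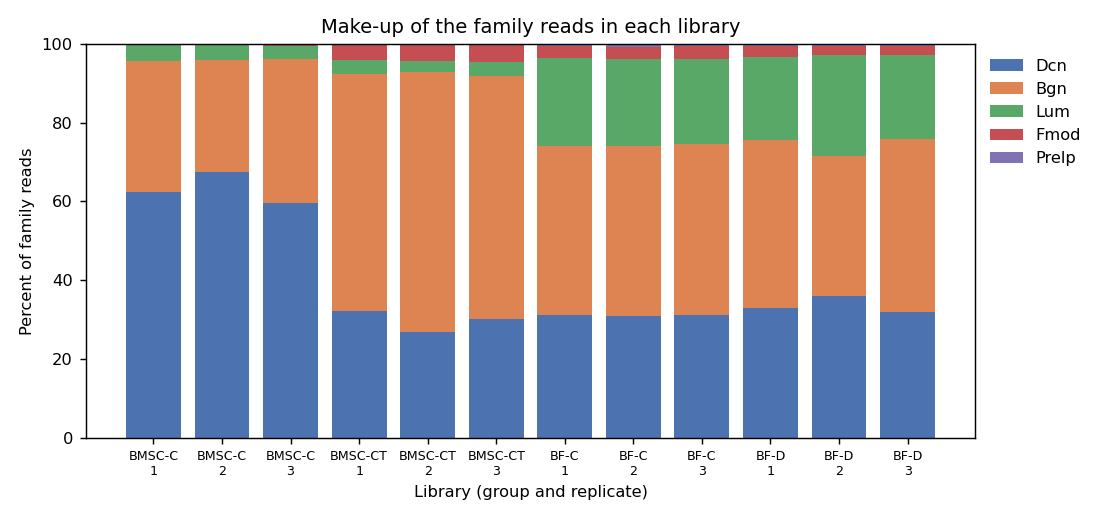
Percent of all family reads that fall on each of the 5 abundant members, as stacked bars that start at 0, for the 12 libraries; reads are not divided by gene length. Decorin is the largest portion in the 3 BMSC-C libraries and biglycan in the 3 BMSC-CT libraries, and lumican takes 21.2% to 25.8% in the BF libraries.

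The effect of docetaxel was examined in the BF cells in the same way. Of the 10 member IDs that passed the minimum, of 11 in the table, 0 were called by limma, against 0.0117% of 17076 genes (0.00586% higher and 0.00586% lower). Counted at an unadjusted limma p under 0.05 there were 2, fibromodulin and PRELP, against 6.20% of all genes. On reads recovered from the table, edgeR and DESeq2 called 0 members each, against 0.0117% and 0.422% of all genes. The median log2 fold change was -0.01 over the 10 IDs and -0.0044 over all genes.

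Fibromodulin had 7067, 7034 and 7120 normalized counts in BF-C and 5861, 4817 and 5351 in BF-D. All treated libraries lay below all controls, and BF-D replicate 2, which stood apart, was the lowest. The mean was 7073 ± 43.1 in BF-C and 5343 ± 522 in BF-D, with a log2 difference of -0.41 (standard error 0.09, limma adjusted p = 0.484). The value moved little but the call depended on 1 library: without BF-D replicate 2 it was -0.34 (limma adjusted p = 0.00176), in a fit that called 1.54% of all genes. The authors' deposited table gives an adjusted p of 0.0888 for this gene.

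PRELP had 893, 937 and 854 normalized counts in BF-C and 790, 630 and 752 in BF-D, again with no overlap and with BF-D replicate 2 lowest (log2 fold change -0.31, standard error 0.11, limma adjusted p = 0.706). Groups without overlap were thus found for 2 of the 10 IDs, Fmod and Prelp, against 16.8% of all genes tested. Their ratio per kilobase within a library was 0.124 ± 0.00641 in BF-C and 0.132 ± 0.00477 in BF-D.

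The 3 most abundant members overlapped between the BF groups. Decorin had 69503, 66649 and 67967 normalized counts in BF-C and 74689, 81037 and 68541 in BF-D (log2 fold change 0.13, standard error 0.10, limma adjusted p = 0.706). Biglycan had 95797, 93716 and 95396 against 96036, 79451 and 94080 (-0.08, standard error 0.11, limma adjusted p = 0.796). Lumican had 49605, 47640 and 47511 against 48126, 57996 and 45512 (0.06, standard error 0.11, limma adjusted p = 0.859). BF-D replicate 2 was the highest of the 6 libraries for decorin and lumican and the lowest for biglycan. Without it the log2 fold changes were 0.073 for decorin, 0.0013 for biglycan and -0.044 for lumican. Kera had 55.1, 34.2 and 48.2 against 37.3, 61.1 and 60.7 (0.20, standard error 0.29, limma adjusted p = 0.819). Epyc, a proteoglycan of growth plate cartilage, had 0, 4 and 1 reads in BF-C and 0 reads in BF-D, which allows up to 0.0621 RPM over that group for counting error alone.

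Asporin and osteoglycin varied more between libraries of 1 group than between groups. Asporin, which inhibits TGF-β signalling in cartilage, had 38, 31 and 24 reads on ENSRNOG00000015410 in BF-C and 438, 272 and 19 in BF-D. On its other ID, ENSRNOG00000050431, the reads were 20, 389 and 25 in BF-C and 14, 18 and 15 in BF-D. Thus 2 docetaxel libraries were high on the first ID and 1 control library was high on the second. The log2 fold changes were 2.18 (standard error 1.00) and -1.76 (standard error 1.05), with limma adjusted p of 0.706 for both. With both IDs summed it was 0.72 (limma adjusted p = 0.831).

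Osteoglycin had 71, 22 and 49 reads on ENSRNOG00000029792 in BF-C and 46, 295 and 33 in BF-D, where the high library was BF-D replicate 2. Its log2 fold change was 0.93 (standard error 0.75, limma adjusted p = 0.712), and 0.0079 without that library. On ENSRNOG00000047786 the reads were 14, 6 and 7 against 6, 4 and 9. The 2 IDs of each symbol may share sequence, and how reads that fit both were assigned is not given in the sources used here, so the split between IDs is uncertain.

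**Figure D4:**
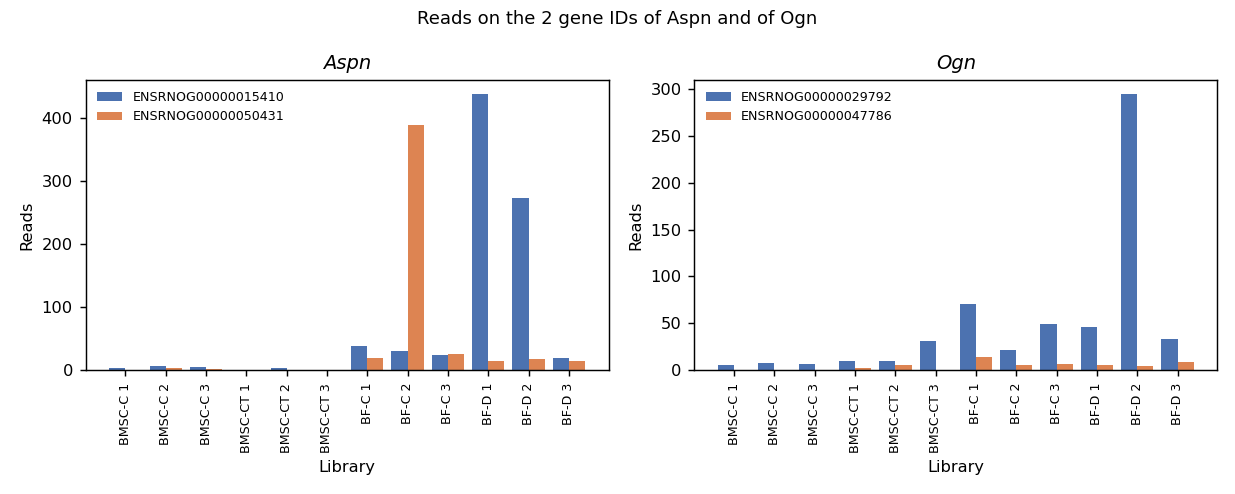
Reads on the 2 gene IDs of Aspn (left) and Ogn (right) in each of the 12 libraries, as bars that start at 0. For Aspn the high bars are 438 and 272 on the first ID in BF-D replicates 1 and 2 and 389 on the second ID in BF-C replicate 2; for Ogn the high bar is 295 on the first ID in BF-D replicate 2.

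The effects of both treatments were compared by testing the difference of the log2 fold changes, BMSC-CT against BMSC-C minus BF-D against BF-C, over 12 libraries. The comparisons share no library. Of 10 member IDs, 4 passed, against 18.0% of 16801 genes. The difference was 4.32 for fibromodulin (standard error 0.18, limma adjusted p = 1.42e-07), which rose in one and was lower in all docetaxel libraries in the other. It was -1.93 for decorin (standard error 0.23, limma adjusted p = 0.00026) and -1.83 for PRELP (standard error 0.35, limma adjusted p = 0.00445). For lumican it was -1.03 (standard error 0.26, limma adjusted p = 0.0196), and this call ended without BMSC-C replicate 2, BF-C replicate 2 or BF-C replicate 3 (limma adjusted p of 0.0511, 0.0520 and 0.0513). Biglycan, at 0.33 (standard error 0.22, limma adjusted p = 0.327), did not pass. This fit took 1 variance per gene over the 12 libraries, although the spread differed between groups, so its adjusted p-values may overstate certainty. For decorin and biglycan the standard error lay below that of the BMSC effect alone (0.27 and 0.25). For fibromodulin it also lay just below, at 0.178 against 0.181. For PRELP and lumican it lay a little above (0.34 and 0.24).

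Genes whose profile over the 12 libraries was most like that of each abundant member were found by Pearson's r of log2(RPM + 1) among 8720 genes. The libraries form 4 groups, so these values mostly describe the group means and carry no test. For fibromodulin they were Kcnd1 at 0.993 and Vat1l at 0.980, and for decorin Lpar1 at 0.992 and Scrn1 at 0.988. For PRELP they were Ntrk2 and Cgnl1, both at 0.994, for lumican Gria3 and Tnfrsf11b, both at 0.996, and for biglycan Efna5 at 0.964. None of these genes is a family member. Over the 6 BMSC libraries, which form 2 groups, decorin and its neighbour lumican had r = 0.987, and over the 6 BF libraries r = 0.855. For the neighbours Fmod and Prelp r was -0.993 in the BMSC libraries and 0.944 in the BF libraries. Members that are not neighbours also correlated strongly: for decorin and PRELP r was 0.953 in the BMSC and -0.911 in the BF libraries. For fibromodulin and biglycan r was -0.207 and 0.646. The 6 BF libraries form 2 groups as well.

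Genes that build, cut or bind these proteins moved in both directions in BMSC-CT. The counts below stand against 7.70% of all genes called higher and 10.9% called lower. Enzymes of chondroitin and dermatan sulfate synthesis, which make the chains of decorin and biglycan, had 3 rises and 5 falls among 20 tested (median log2 fold change -0.81, against -0.15 over all genes). Chsy3, a chondroitin polymerase, fell from 755 ± 82.4 to 75.9 ± 50.5 normalized counts (limma adjusted p = 0.0133), and Chst11, a chondroitin 4-sulfotransferase, from 1823 ± 176 to 223 ± 169 (limma adjusted p = 0.0350). B3gat3, which completes the linker that joins chain to protein, rose from 2408 ± 315 to 9428 ± 4646 (limma adjusted p = 0.0181), and Chpf, a chain-polymerizing partner, from 4533 ± 594 to 14261 ± 5611 (limma adjusted p = 0.0193). Without BMSC-CT replicate 3 the list had 6 rises and 8 falls, in a fit that called 43.0% of all genes.

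Keratan sulfate enzymes had 3 rises and 1 fall among 8 tested (median -0.12). Chst2, a sulfotransferase, fell from 1567 ± 434 to 94.6 ± 46.9 normalized counts (limma adjusted p = 0.00239), and B3gnt7, a chain-extending enzyme, rose from 40.7 ± 10.4 to 142 ± 20.2 (limma adjusted p = 0.0161). B4galt4 rose from 55.0 ± 9.59 to 118 ± 11.4 (limma adjusted p = 0.0466). Of 10 genes that supply sugar and sulfate donors or sulfate tyrosines, 1 rose and 1 fell (median 0.15). Ugdh, which makes UDP-glucuronate, fell from 2418 ± 57.2 to 725 ± 93.6 (limma adjusted p = 0.00238), and Slc35b2, the Golgi carrier of activated sulfate, rose from 1035 ± 69.6 to 2435 ± 901 (limma adjusted p = 0.0352).

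Among 11 proteases and helpers that remove propeptides or cut the family's proteins, 1 rose and 2 fell (median 0.27). Mmp3, or stromelysin 1, fell from 119157 ± 28406 to 8543 ± 1188 normalized counts (limma adjusted p = 0.000827) and Tll1, a tolloid protease, from 264 ± 39.0 to 83.4 ± 45.3 (limma adjusted p = 0.0420). Htra1, a serine protease that cuts matrix proteins, rose from 6272 ± 565 to 12989 ± 4313 (limma adjusted p = 0.0484). Among 10 collagen chains 4 rose and 1 fell (median 0.87). Col3a1 rose from 1492 ± 452 to 11525 ± 774 (limma adjusted p = 0.00127), Col1a1 rose from 24234 ± 2703 to 126169 ± 6370 (limma adjusted p = 0.0020), and Col12a1 fell from 62764 ± 8210 to 5581 ± 2075 (limma adjusted p = 0.00181).

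Of 14 receptors and growth factors bound by the family, 0 rose and 5 fell, against 7.70% higher and 10.9% lower over all genes (median -1.27, against -0.15). Bmp4, a bone morphogenetic protein, fell from 480 ± 38.8 to 9.68 ± 8.75 normalized counts and Egfr, a receptor that decorin binds, from 1136 ± 155 to 106 ± 51.6, both with a limma adjusted p of 0.00396. Of 5 further leucine-rich matrix proteins tested, 2 rose (median -0.66), Podnl1 from 66.8 ± 5.24 to 318 ± 153 (limma adjusted p = 0.0142) and Tsku from 855 ± 74.5 to 2796 ± 465 (limma adjusted p = 0.00380). Without BMSC-CT replicate 3 the rises and falls were 4 and 1 for keratan sulfate, 3 and 2 for donors, 4 and 3 for cleavage, 7 and 1 for collagens, 1 and 9 for receptors and 2 and 1 for the further proteins. That fit called 43.0% of all 16742 genes, 3269 higher and 3935 lower, and these counts stand against that share.

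**Figure D5:**
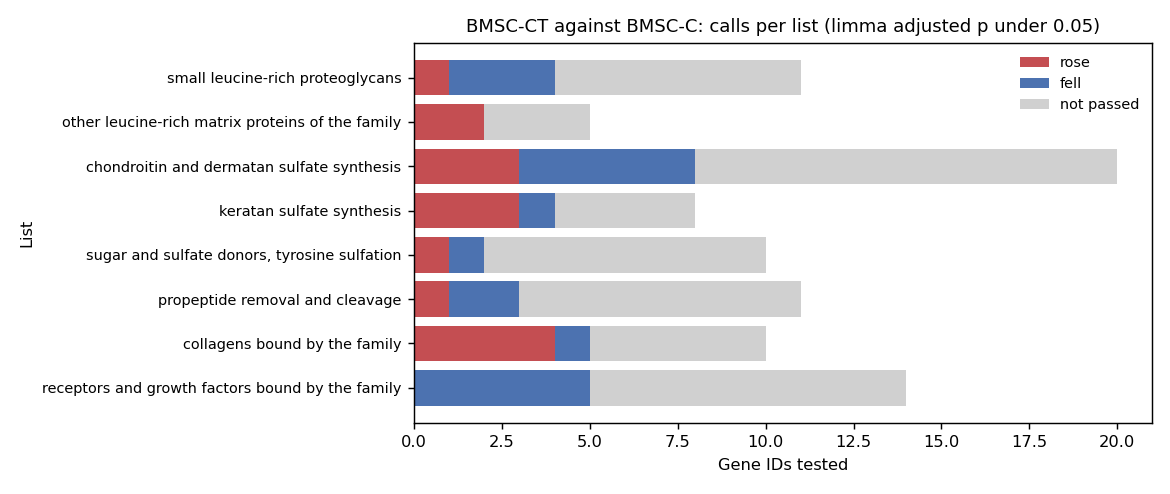
Number of gene IDs per list that rose, fell or did not pass in BMSC-CT against BMSC-C (limma adjusted p under 0.05), as stacked bars that start at 0. The members have 1 rise and 3 falls of 11, the collagens 4 rises and 1 fall of 10, and the receptors and growth factors 5 falls and no rise of 14.

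In BF-D none of the genes of these 7 lists passed in limma. Of the 11 collagen chains 10 had a negative log2 fold change, with a median of -0.34 against -0.0044 over all genes. Without BF-D replicate 2 the collagens had 7 falls of 11, the cleavage list 2 rises and 1 fall of 10 and the receptor list 1 rise of 12, with 0 calls in the other 4 lists. That fit called 1.54% of all 17139 genes, 125 higher and 139 lower. With all 6 libraries, 0 of 9 stromal, 0 of 8 macrophage and 0 of 9 chondrocyte markers passed in BF-D, and 1 marker in all, Spp1 of the osteoblast list, rose. Without BF-D replicate 2, 2 of 8 macrophage markers rose, 1 of 9 stromal markers rose and 2 fell, and 1 of 9 chondrocyte markers fell. The part of these markers in the values of the members was not tested.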

How the data were processed

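RNA sequencing of 12 rat libraries was used. Per the labels' protocols, RNA was taken with an RNeasy kit and libraries were made with NEBNext Ultra. The submitters' processing notes name Bowtie 0.12.2 and the mouse build mm8, while gene IDs are those of rat Ensembl. How reads were assigned to genes, and the rat build, are not given in the sources used here. The authors deposited 1 table per comparison, of 18616 (BMSC) and 19355 (BF) genes, with 1 normalized signal value per gene and library. These deposited values are whole reads divided by 1 factor per library, since 100% came out whole within a tolerance of 0.01, and 1 read was worth 0.813 to 1.61. The log2 fold changes and adjusted p-values deposited by the authors were read only for the value so named. No column of values was left without a sample.

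The design foresaw edgeR for raw counts and limma for normalized values, so limma 3.58.1 (empirical Bayes with trend, R 4.3.3) was the main test. Per table, log2(normalized count + 1) was fitted wherever the mean reached 1. A gene counts as called where its p, adjusted by Benjamini-Hochberg over all genes tested, lies under 0.05. The difference of effects was tested over all 12 libraries. The recovered reads gave RPM and RPKM and were tested with edgeR 4.0.16, which called 2954 genes in BMSC-CT and 2 in BF-D, and DESeq2 1.42.0, which called 5504 and 72. The limma step was also run on simulated counts with the same spread setting for all genes and libraries. These held no library that stood apart, so they do not cover that case. Floors of 3 reads cover counting error only. Motifs were searched in the 250 bases upstream in the RefSeq promoter table, which holds 7 of the 10 symbols.

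The members, the 7 related and 7 marker lists and the tests were chosen with earlier results of these data known. Named were all members, up to 2 called genes per list and direction with the largest change, and the 2 genes most like each abundant member, of which 1 is not reported here. Alternatives covered pseudocounts, filters, scalings, the count tools, robust and weighted fits, a replicate block and each library left out. Deposited enrichment and interaction lists were not used.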

Additional observations from a re-analysis of the deposited data

How the results depend on the processing

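Over the single-member values 519 alternatives kept direction and side of the threshold, 14 lost the call, 8 gained one and 10 changed sign. In BMSC-CT, leaving out 1 library gave 1 to 5 members called and 736 to 7204 genes, and quality weights gave 7 members and 12357 genes, in a weighting that stopped before it converged. DESeq2 called 5504 genes there, against 3134 in limma. In BF-D, leaving out 1 library gave 0 to 1 members and 0 to 264 genes, quality weights 1 member and 125 genes, DESeq2 72 genes, and a mean of at least 10 or the replicate block 0 genes. Effects differed for 3 to 5 members when 1 library was left out. The share of all genes whose effects differed was counted only in the main fit, at 18.0% of 16801. Biglycan changed sign in BMSC-CT under total-read (-0.18) and quantile scaling (-0.55), and its difference of effects under total-read scaling (-0.11). In BF-D, biglycan ran from -0.14 to 0.0013 and lumican from -0.044 to 0.13 when 1 library was left out, with the changed signs without BF-D replicate 2, and under quality weights lumican was -0.018 and Kera -0.026. The difference for Ogn (ENSRNOG00000029792) ran from -0.21, without BMSC-CT replicate 3, to 1.46 and was -0.045 without BF-D replicate 3, and that for Aspn (ENSRNOG00000050431) ran from -0.51, without BF-C replicate 2, to 1.76. For Aspn (ENSRNOG00000015410) it passed without BF-D replicate 3, at -4.70 (limma adjusted p = 0.00682). The cause of these moves was not tested. Whether replicate numbers pair the libraries was not settled. Same-numbered deviations correlated at 0.20, -0.021 and 0.18 in the BMSC table and 0.014, 0.020 and -0.0029 in the BF table. Differently numbered ones ran from -0.225 to 0.0891 in the BMSC table and from -0.0348 to 0.0277 in the BF table. With the replicate block 3 members were called in BMSC-CT, with lumican lost (limma adjusted p = 0.0542), and 3003 genes, 0 members in BF-D, and 4 differences of effects. Epyc had at most 4 reads in any library, which limits what can be seen for it.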
